A study of Homo sapiens with 24 samples.

Results

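Open chromatin was compared between RES-A and LNCaP cells after exposure to dihydrotestosterone (DHT, the androgen that binds the androgen receptor most tightly). LNCaP is a human prostate cancer cell line that depends on androgens, and RES-A is a subline derived from it that is resistant to enzalutamide (ENZ), a drug that blocks the androgen receptor. The assay was FAIRE-seq, which fixes proteins to DNA, breaks the chromatin and recovers by phenol extraction the DNA that carries few nucleosomes, for sequencing. The comparison used the 6 peak lists whose titles give DHT without ENZ, 3 of LNCaP and 3 of RES-A, out of 24 in the series. Both groups were first cultured in 5% charcoal-stripped serum, a medium with little androgen, for 3 days and then given 10 nM DHT for 18 h. During those 3 days RES-A also received 10 µM ENZ and LNCaP did not, so the effect of the subline and that of the earlier drug cannot be told apart. The other 18 lists came from the same sublines given DMSO (the solvent), 10 µM ENZ or DHT+ENZ, and they were used only to follow the regions found with DHT. RES-A is a single resistant line, and the replicates are described as biological triplicates, so the spread between them is that between cultures of 1 line.

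As background, the androgen receptor is a transcription factor that enters the nucleus when androgen binds it and occupies sites in DNA, mostly enhancers far from promoters, where nucleosomes are displaced and chromatin opens. Castration, charcoal-stripped serum and ENZ all lower the activity of the receptor. Resistant cells can restore that activity or can come to depend on other transcription factors, and a change in the set of open regions is one way in which such a shift can be seen. FAIRE-seq reports open DNA at promoters, enhancers and insulators alike and does not name the factor bound there.

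Each list came from the authors' peak caller, which was run on every library separately and gives for each peak its position in the hg19 genome build, its length, its height and a fold enrichment, the ratio of the height to the local background. The gene annotation at hand was of another build (GRCh38), so regions are named here by their hg19 positions, and genes, motifs and sequences at them were not analysed here.

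The LNCaP libraries given DHT held 82224, 275774 and 212064 peaks in replicates 1, 2 and 3, and the RES-A libraries held 169514, 176254 and 191488. LNCaP replicate 1 had the shortest list of the 6 and LNCaP replicate 2 the longest, so the RES-A lists lay inside the range of the LNCaP lists. Their mean numbers on the chromosomes, 189131 ± 98192 (SD, n = 3) for LNCaP and 178404 ± 11177 for RES-A, differed by less than that spread (exact permutation test, two-sided, p = 0.9). The genome covered by peaks was 16.2, 72.1 and 52.5 Mb in LNCaP and 44.9, 45.0 and 51.8 Mb in RES-A, and these ranges overlapped as well (exact permutation p = 1). The background level that the peak caller had assumed, recovered from each list as a measure of relative depth, was 0.739, 5.04 and 5.99 reads per base in LNCaP and 1.99, 1.81 and 3.16 in RES-A. By that measure LNCaP replicate 1 was the shallowest library of the 6, and LNCaP replicates 2 and 3 were deeper than any RES-A library.

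The top-ranked peaks of RES-A stood further above background. Median peak length over the whole lists was 166, 212 and 207 bp in LNCaP and 238, 228 and 242 bp in RES-A, and every RES-A library exceeded every LNCaP library, but these lists differ in size. When lists of unequal length were made comparable by taking from each the 50000 peaks with the strongest p-values (called the top-ranked peaks here), the median fold enrichment was 5.58, 7.20 and 5.72 in LNCaP and 9.28, 9.09 and 8.90 in RES-A, and every RES-A library lay above every LNCaP library. The median length of the same peaks was 209, 416 and 364 bp in LNCaP and 359, 350 and 380 bp in RES-A, so the groups overlapped in length once the lists were of equal size. The mean difference in fold enrichment was 2.92, from 6.17 ± 0.897 in LNCaP to 9.09 ± 0.191 in RES-A (SD, n = 3 each; exact permutation p = 0.1, which is the smallest p that 3 libraries against 3 allow; 0.25 after Benjamini-Hochberg adjustment over 5 library features). Without LNCaP replicate 1 the difference was 2.63, so it did not rest on the shallow library. The background level moved in the other direction for the remaining libraries, with LNCaP replicates 2 and 3 above all of RES-A, and its part in the difference in enrichment was not tested.

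**Figure D1:**
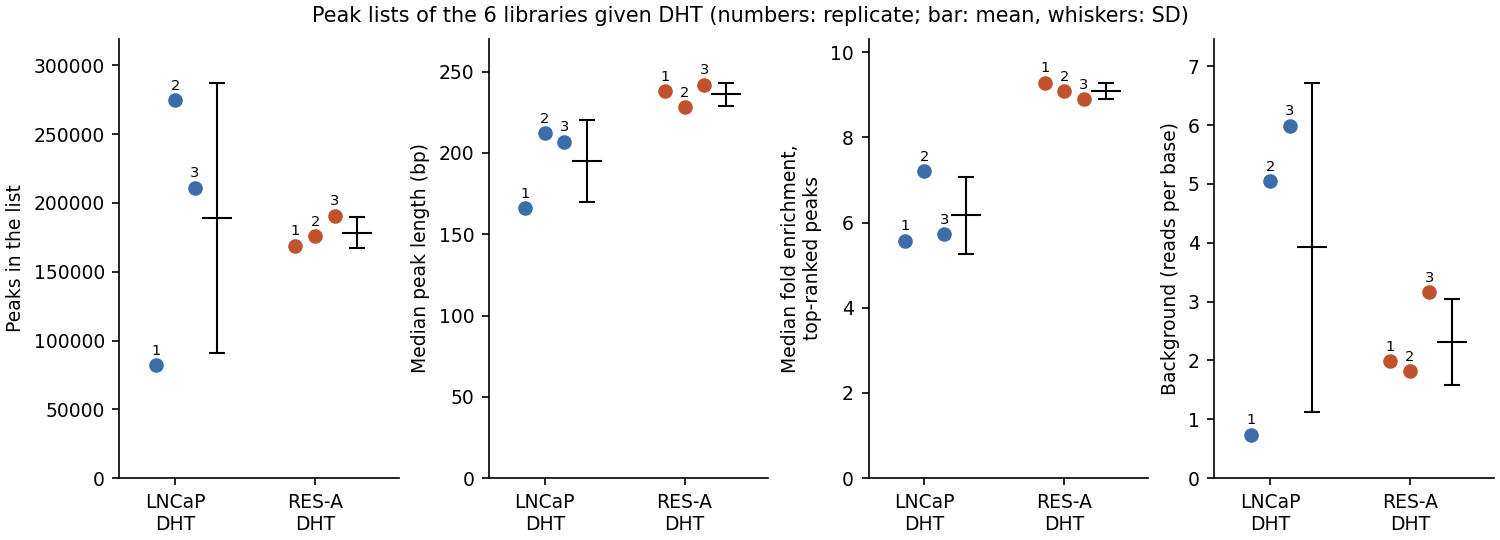
Features of the 6 peak lists given DHT, one point per library numbered by replicate, with the mean and SD of each group to the right: number of peaks, median peak length in bp, median fold enrichment of the 50000 top-ranked peaks, and background in reads per base. All 3 RES-A libraries lie above all 3 LNCaP libraries in enrichment and in the length of all listed peaks, while in list length and background LNCaP replicate 1 lies lowest and the RES-A libraries fall within the LNCaP range.

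To ask which regions were open in one subline and not in the other, the top-ranked peaks of the 6 libraries were merged wherever they overlapped by at least 1 bp, which gave 88829 regions. A region is said to be called in a library when a top-ranked peak of that library lies in it. All 6 libraries called 21435 of these regions (24.1%), and 23146 (26.1%) were called in 1 library. Of the latter, 10016 came from LNCaP replicate 1, which is 20.3% of the regions it called, whereas the other 5 libraries had between 4.34% and 6.79% of theirs to themselves.

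Each subline had regions of its own. Regions that every library of one subline called and every library of the other lacked numbered 11094, or 12.5% of all merged regions. Of these, 6447 (7.26% of the merged regions) were called in RES-A alone and 4647 (5.23%) in LNCaP alone. Set against the regions that each subline called in all its libraries, the shares were close, 16.9% of 38123 for RES-A and 15.3% of 30428 for LNCaP. Of the 14909 regions called in exactly 3 libraries, 74.4% divided in this way by subline.

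Which subline had more of them depended on the shallow library. Without LNCaP replicate 1, the regions called in RES-A alone numbered 7702 (9.77% of 78815 merged regions) and those called in LNCaP alone numbered 7908 (10.0%), so LNCaP had slightly more. Leaving out any LNCaP library eases the rule, as fewer LNCaP libraries must call or lack a region. Without LNCaP replicate 2 the counts were 7485 for RES-A and 5808 for LNCaP, and without replicate 3 they were 7597 and 6178. With every deposited peak in place of the top-ranked ones, the counts were 16891 for RES-A alone and 4732 for LNCaP alone. A region then needs one of the 82224 peaks of LNCaP replicate 1 to be called in 3 of 3 LNCaP libraries. No direction for the number of regions particular to each subline is therefore given.

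In 5 of the 6 libraries most of the regions not called still held a weaker deposited peak, and LNCaP replicate 1 was the exception. Among the 6447 regions called in RES-A alone, 16.6% held a weaker deposited peak in LNCaP replicate 1, 78.7% in replicate 2 and 72.3% in replicate 3. Among the 4647 called in LNCaP alone, 78.2%, 78.6% and 82.1% held one in RES-A replicates 1, 2 and 3. Only 1083 of the former (16.8%) and 520 of the latter (11.2%) had no peak of any rank in the other subline. In regions called in RES-A alone the median fold enrichment was 9.01, 8.80 and 8.66 in the RES-A libraries and 4.03, 4.16 and 3.56 in the LNCaP libraries that held a peak there. In regions called in LNCaP alone it was 5.46, 6.83 and 5.32 in LNCaP and 5.01, 4.97 and 4.72 in RES-A, so the fold enrichments of the sublines came closer there, on a scale on which the RES-A libraries were higher overall. Regions called in all 6 libraries were stronger in both sublines, with medians of 6.33, 8.30 and 6.64 in LNCaP and 10.6, 10.4 and 10.2 in RES-A, and they were longer than those called in RES-A alone, at a median of 512 bp against 407 bp. Regions called in LNCaP alone were about as long as the shared ones, at 504 bp. A merged region spans the overlapping peaks of every library that called it, which lengthens those called in all 6. A call in all 6 also favours strong regions, so these lengths and medians are a description.

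The weaker a region was within its own subline, the more often the other subline lacked it. When the 38123 regions called in all 3 RES-A libraries were divided into 4 equal-sized bins by their mean fold enrichment, the share called in no LNCaP library went from 24.6% in the weakest bin through 20.9% and 15.2% to 7.07% in the strongest. For the 30428 regions of LNCaP the share called in no RES-A library went from 30.6% through 17.9% and 9.68% to 2.91%. These values describe the regions, and the bins were formed on the same peaks that made the calls.

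Strong regions that were wholly missing from the other subline are the clearest cases. Among those with no deposited peak of any rank in the other subline, the 5 with the highest minimum fold enrichment were taken in each direction. Their fold enrichments chose them and are given as a description. The region chr7:149417604-149417921 had fold enrichments of 17.7, 15.3 and 17.1 in RES-A, chr6:31117586-31118035 had 15.9, 17.8 and 15.3, and chr22:39688608-39689056 had 16.3, 14.9 and 16.8. The remaining RES-A regions both lie on chromosome 1. At chr1:15321576-15321934 the values were 14.7, 14.6 and 14.9, and at chr1:1176217-1176554 they were 14.4, 16.0 and 16.9. All 5 were therefore well above the median of the top-ranked peaks in each RES-A library, and no LNCaP library given DHT listed a peak there.

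In the LNCaP direction the strongest such region was chr8:41259120-41259698, on the short arm of chromosome 8, with fold enrichments of 8.16, 13.4 and 11.5 in LNCaP. The region chr17:62747484-62748337 had 7.80, 10.5 and 7.72, and chr2:118735998-118736472 had 10.6, 9.40 and 7.46. The last of these was highest in the shallow replicate. At chr14:86375922-86376351 the values were 9.54, 10.1 and 7.32, and at chr10:43214067-43214905 they were 7.82, 9.53 and 7.12. No RES-A library given DHT listed a peak in any of the 5.

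Libraries given other treatments are independent of that choice. All 5 RES-A regions held a peak in 9 of the 9 RES-A libraries given DMSO, ENZ or DHT+ENZ, with fold enrichments between 8.0 and 18.9. In the 9 LNCaP libraries of those treatments, peaks of any rank were listed in 1 library at the region of chromosome 7, in 1 at that of chromosome 6, and in 0 at those of chromosome 22 and of chr1:1176217-1176554. The region chr1:15321576-15321934 behaved differently, with a peak in 8 of 9 LNCaP libraries, 3 of 3 given DMSO and 3 of 3 given DHT+ENZ among them, so its absence from LNCaP was seen with DHT and in 1 library given ENZ. Of the LNCaP regions, 4 held a peak in 9 of 9 LNCaP libraries of the other treatments, and that of chromosome 2 in 8 of 9. RES-A listed no peak at those of chromosomes 8, 2 and 10 in any of its 9 other libraries, but had one in 2 libraries at that of chromosome 17 and in 4 at that of chromosome 14.

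LNCaP replicate 1 was examined separately. Of the 41386 regions called in both LNCaP replicates 2 and 3, it called 73.5%, and it listed a peak of some rank in 85.7%. The same measure for the other 5 libraries, the share of the regions called in both fellow libraries, lay between 90.8% and 92.1%. Its shortfall was in the weaker regions. Across 4 equal-sized bins of those regions by mean fold enrichment in replicates 2 and 3, it called 58.5%, 66.3%, 77.6% and 91.6% from the weakest to the strongest. Its top-ranked peaks made up 61.1% of its whole list, against 18.2% to 29.6% of the other lists, and reached down to a −log10 p of 5.94, where the other lists ended between 15.3 and 21.2. Over 49431 regions with a peak in all 6 libraries, its log2 fold enrichment had a Pearson correlation of 0.517 with each of LNCaP replicates 2 and 3 and of 0.402 to 0.410 with the RES-A libraries, while replicates 2 and 3 correlated at 0.850 with each other and the RES-A libraries at 0.859 to 0.880. These correlations are across regions, which share the library's depth and are not replicates. The shallow library lay nearer to its own subline than to RES-A. LNCaP replicates 2 and 3 correlated at 0.623 to 0.650 with the RES-A libraries, above their 0.517 with replicate 1. Every correlation of the shallow library was thus below that of every other pair, within or between the sublines.

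The separated regions were unevenly spread over the chromosomes. On chromosome 6, 12.6% of the merged regions were called in RES-A alone and 2.75% in LNCaP alone, against 7.26% and 5.23% over the genome. Chromosomes 21 (11.8% and 3.15%), 1 (11.0% and 3.35%), 17 (9.87% and 2.89%) and 16 (9.43% and 2.97%) leaned the same way. Chromosome 8 leaned towards LNCaP, with 5.35% of its regions called in RES-A alone and 9.89% in LNCaP alone, as did chromosomes 4 (4.49% and 8.74%) and 15 (3.99% and 8.02%). On the X chromosome, where the androgen receptor gene lies, the shares were 5.79% and 3.27%.

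**Figure D2:**
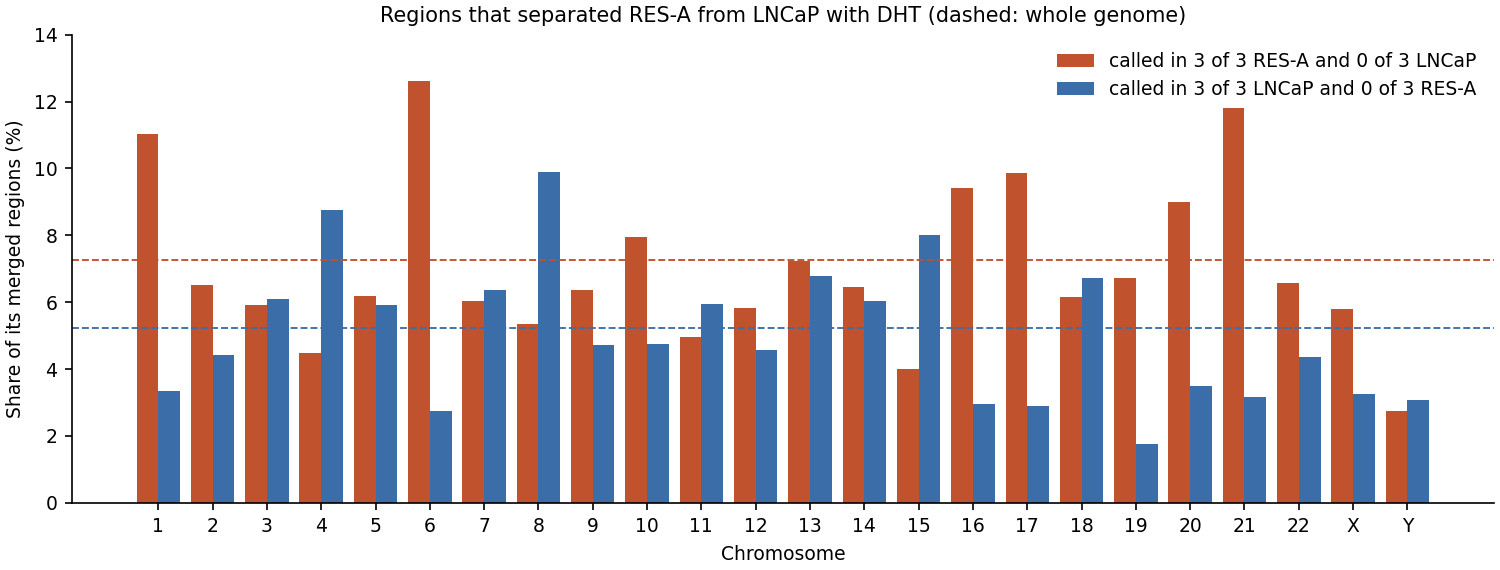
Share of the merged regions of each chromosome, in percent, called in 3 of 3 RES-A and 0 of 3 LNCaP libraries (orange) or the reverse (blue), with dashed lines at the genome-wide 7.26% and 5.23%. The orange bars are tallest on chromosomes 6, 21 and 1, and the blue bars on chromosomes 8, 4 and 15.

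To locate the unevenness and test it against the spread between libraries, the share of each library's top-ranked peaks was counted in windows of 10 Mb and compared between sublines with limma on the log2 scale. Windows were kept where the libraries averaged 20 peaks or more, and of these 306 windows 199 (65.0%) passed an adjusted p of 0.05, with 92 (30.1%) higher in RES-A and 107 (35.0%) lower. The values of the groups did not overlap in 190 of the 199, against 202 (66.0%) of all 306 windows, and 15 of the 199 differed by more than 1 on the log2 scale. Because a library's shares add up to a fixed total, a gain in some windows lowers the share of the rest, so the windows are not independent of each other.

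Of the 5 windows with the greatest gain, 4 lay on chromosome 6, in neighbouring pairs from 40 to 60 Mb and from 70 to 90 Mb. The window between the pairs, from 60 to 70 Mb, did not pass (log2 difference 0.34, SE 0.16; limma, adjusted p = 0.0776). Between 80 and 90 Mb the share of top-ranked peaks was 0.110%, 0.0600% and 0.0520% in LNCaP and 0.240%, 0.226% and 0.222% in RES-A, a log2 difference of 1.71 (SE 0.20; limma, adjusted p = 3.17e-06). LNCaP replicate 1 was the highest of its group there, yet every RES-A library had more than that library. Of the 176 merged regions in this window, 47 were called in RES-A alone and 0 in LNCaP alone. The window from 40 to 50 Mb rose by 1.19 (SE 0.09), from 0.219% ± 0.0359 (SD, n = 3) to 0.497% ± 0.0110, that from 50 to 60 Mb by 1.16 (SE 0.09), and that from 70 to 80 Mb by 1.01 (SE 0.10). Chromosome 6 had 14 of 17 windows higher in RES-A and 0 lower. The fifth window by size lay on chromosome 21 between 40 and 50 Mb, where the share went from 0.227% ± 0.0258 to 0.437% ± 0.00306 (log2 difference 0.95, SE 0.07).

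The greatest loss was on chromosome 13 between 60 and 70 Mb. The share there was 0.220%, 0.194% and 0.172% in LNCaP and 0.0340%, 0.0380% and 0.0300% in RES-A, a log2 difference of -2.52 (SE 0.15; limma, adjusted p = 2.58e-09), or 5.74-fold lower in RES-A. Of its 154 merged regions, 34 were called in LNCaP alone and 0 in RES-A alone. The short arm of chromosome 8, a part of the genome that is often lost in prostate cancer, held 2 of the next 4. Between 30 and 40 Mb the share was 0.306%, 0.306% and 0.294% in LNCaP and 0.10%, 0.0940% and 0.10% in RES-A (log2 difference -1.62, SE 0.08), and between 10 and 20 Mb the log2 difference was -1.38 (SE 0.06). Other windows of chromosome 8 were looked at after these values were seen. From 0 to 10 Mb the share went from 0.321% ± 0.0167 to 0.147% ± 0.0244 and from 20 to 30 Mb from 0.525% ± 0.00115 to 0.242% ± 0.00529. On the long arm the log2 difference was -0.22 from 60 to 70 Mb, -0.38 from 70 to 80 Mb, -0.42 from 80 to 90 Mb, -0.27 from 90 to 100 Mb and -0.21 from 110 to 120 Mb, all past the threshold. It was 0.16 from 50 to 60 Mb and 0.11 from 120 to 130 Mb, both past the threshold. At the far end of the arm, from 130 to 140 Mb and from 140 to 150 Mb, it was 0.21 and 0.41, also past the threshold. From 100 to 110 Mb it was -0.07 and did not pass (limma, adjusted p = 0.171). On chromosome 4 the windows from 130 to 140 Mb (log2 difference -1.45, SE 0.09) and from 90 to 100 Mb (-1.31, SE 0.07) were lowest, and 16 of its 19 windows were lower in RES-A. The window of the X chromosome from 60 to 70 Mb, which spans the androgen receptor gene and is named for that reason, did not pass (log2 difference -0.29, SE 0.15; limma, adjusted p = 0.106).

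The local background of the peak caller moved with these windows. It is the background that the caller assumed at each peak, taken here relative to the library's genome-wide level. At chromosome 6, 80 to 90 Mb, the median log2 local background of peaks was 0.00, 0.08 and 0.00 in LNCaP and 0.74, 0.75 and 0.60 in RES-A. At chromosome 13, 60 to 70 Mb, it was 0.68, 0.80 and 0.67 in LNCaP and 0.26, 0.22 and 0.24 in RES-A. The genome-wide level is the lowest value in a library, so no log2 value can fall below 0.00. In the chromosome 6 window LNCaP lay at or near that floor, so any lower level there could not be seen. Over the 306 windows the differences in peak share and in local background had a Pearson correlation of 0.823 and a Spearman correlation of 0.761, as a description across windows of the same 6 libraries, which share their reads. The median difference in local background was 0.39 in windows higher in RES-A, 0.10 in windows lower in RES-A and 0.23 in the rest. The part of the local background in the window differences was not tested. The differences in share were of the same sign in 197, 197 and 199 of the 199 windows in the libraries given DMSO, ENZ and DHT+ENZ, which were not used to find them. The like number over all 306 windows is not given here, so these counts have no background beside them.

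**Figure D3:**
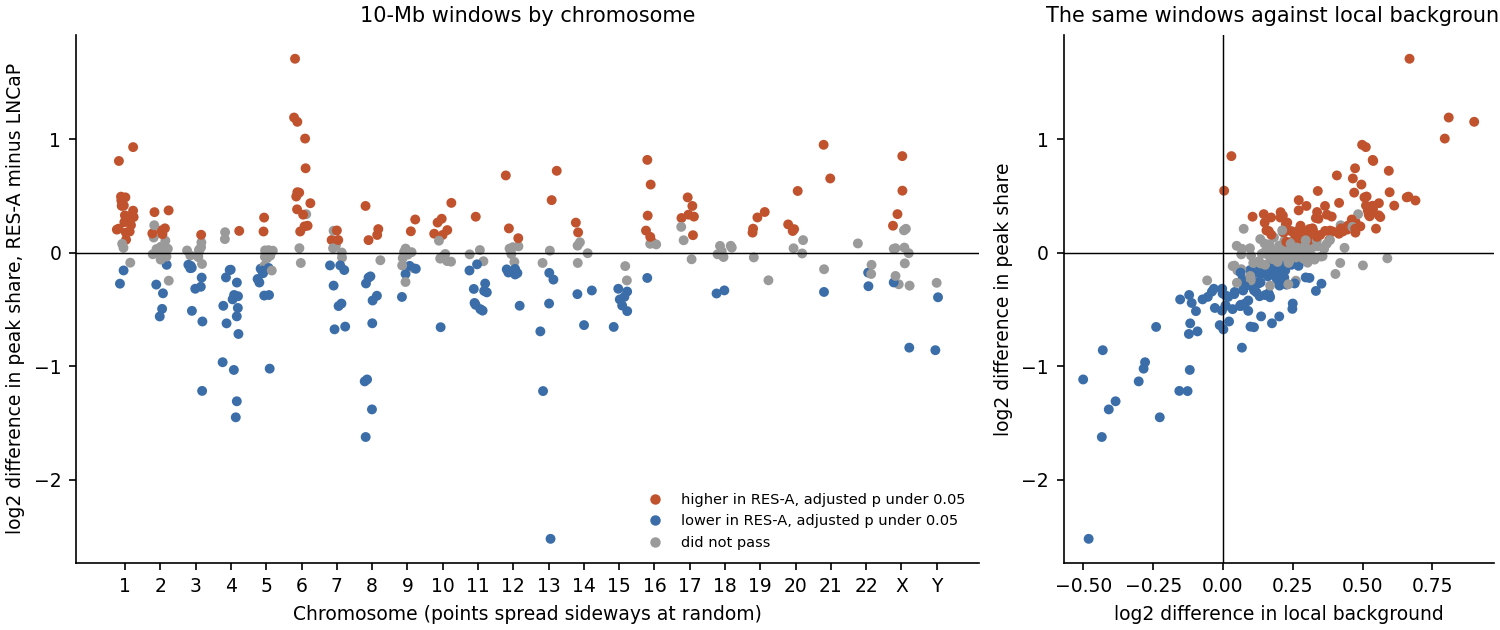
Left, log2 difference in the share of top-ranked peaks (RES-A minus LNCaP, both with DHT) for 306 windows of 10 Mb, by chromosome, coloured where the adjusted p was under 0.05. Right, the same windows against the log2 difference in local background. The windows of chromosome 6 reach 1.71 and that of chromosome 13 reaches -2.52, and peak share and local background rise together (Pearson r = 0.823 across windows).

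Enrichment was then compared at regions that both sublines had open. Of the merged regions, 49431 held a deposited peak of any rank in all 6 libraries, and their log2 fold enrichments were set on a common scale by quantile normalization, which removes the higher overall enrichment of RES-A, and tested with limma. In all, 4090 regions (8.27%) passed an adjusted p of 0.05, of which 1973 (3.99%) were higher and 2117 (4.28%) lower in RES-A. The values of the groups did not overlap in 4086 of the 4090, which passing the test nearly fixes, and in 15539 (31.4%) of all the regions tested. The median size of the called differences was 0.77 on the log2 scale, against 0.22 over all the regions tested, and 611 exceeded 1. The median difference over all tested regions was 0.00.

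The count moved by over 1.5 times when any one library was left out. Without LNCaP replicate 1, 16761 of 66583 regions (25.2%) passed, 8709 higher and 8052 lower, and 4024 of the 4090 were among them with the same sign. Leaving out a RES-A library left between 503 and 581 regions, and leaving out LNCaP replicate 2 or 3 left 2145 or 2443. When the rank of each peak's p-value within its list replaced fold enrichment, 0 regions passed (limma, with 6895 at an unadjusted p under 0.05 against 12642 in the test reported). That fit was also run without normalization, on ranks within lists of unequal length, and the cause of the change was not tested. The calls are therefore given for fold enrichment only.

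The region with the greatest gain in RES-A was chr15:75100435-75100934. Its fold enrichment was 3.45, 4.47 and 3.29 in LNCaP and 19.4, 16.5 and 16.4 in RES-A, a log2 difference of 1.91 after normalization (SE 0.16; limma, adjusted p = 7.16e-04). All 3 RES-A libraries lay far above the LNCaP libraries. The region chr7:75240807-75241607 had 4.03, 2.81 and 2.72 in LNCaP and 17.1, 14.6 and 15.8 in RES-A (log2 difference 1.90, SE 0.18). The region chr7:143092620-143092999 had 4.60, 3.14 and 3.15 in LNCaP and 17.0, 18.1 and 16.5 in RES-A (1.80, SE 0.19). In both of these the shallow replicate was the highest of LNCaP. The other members of this set were chr12:6662272-6662654, with a log2 difference of 1.73 (SE 0.16), and chr19:2484045-2484601, also with 1.73 (SE 0.17).

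The greatest loss was at chr18:72843842-72844434, with fold enrichments of 7.77, 13.5 and 10.6 in LNCaP and 4.01, 3.55 and 2.89 in RES-A (log2 difference -1.93, SE 0.18; limma, adjusted p = 9.76e-04). The lowest LNCaP value, that of the shallow replicate, was still above the highest RES-A value. The region chr13:110382639-110383328 had 8.82, 12.2 and 9.14 in LNCaP and 4.68, 3.55 and 2.89 in RES-A (-1.81, SE 0.18), and chr4:79026294-79026804 had 10.6, 11.9 and 11.1 against 4.35, 4.62 and 3.85 (-1.77, SE 0.15). At chr19:58951448-58951911 the log2 difference was -1.68 (SE 0.16) and at chr17:7806848-7807370 it was -1.61 (SE 0.16). The adjusted p of the 10 named regions lay between 7.16e-04 and 0.00131.

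**Figure D4:**
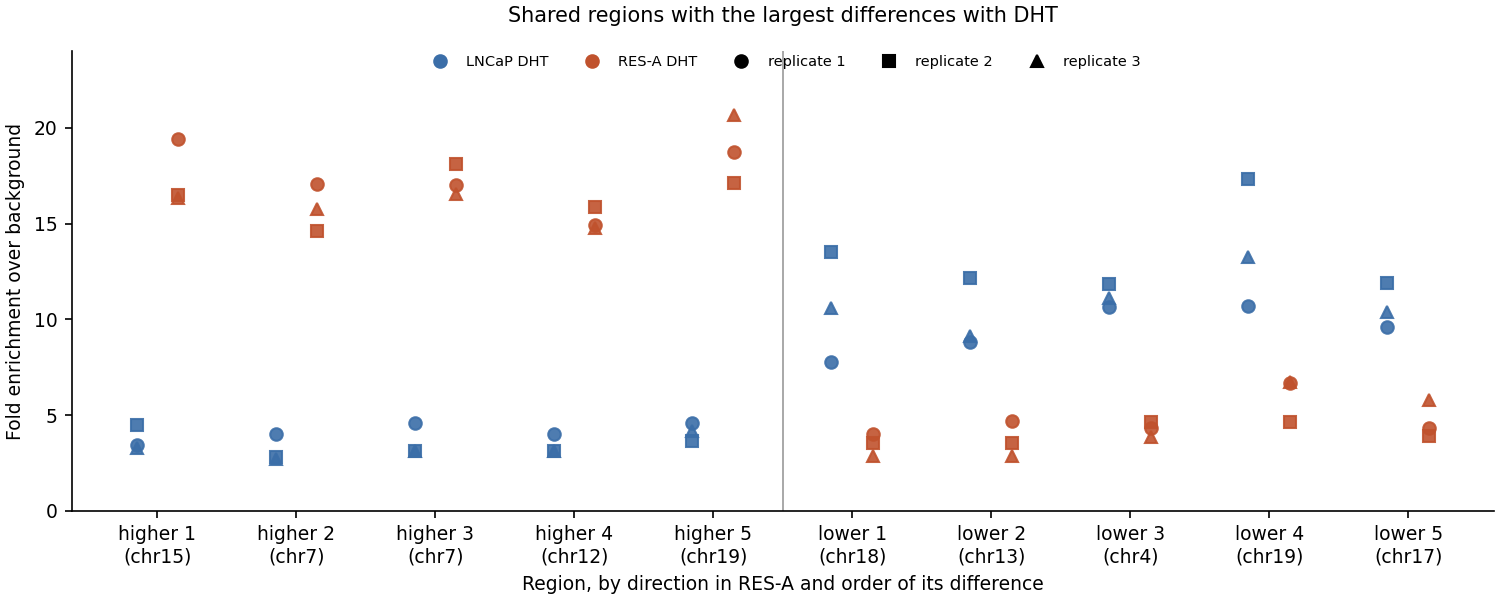
Fold enrichment as deposited in each of the 6 libraries at the 5 shared regions with the greatest gain and the 5 with the greatest loss in RES-A, in order of size and marked by chromosome. RES-A values in the gained regions lie between 14.6 and 20.7 and LNCaP values between 2.72 and 4.60, and in the lost regions every LNCaP library lies above every RES-A library.

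These 10 regions differed in the same direction under other treatments wherever both sublines had peaks. The region chr15:75100435-75100934 had fold enrichments of 5.76 to 7.71 in the LNCaP libraries given DMSO and 17.4 to 19.4 in those of RES-A. At chr19:2484045-2484601, the ranges with DMSO were 3.26 to 5.31 and 12.9 to 15.8. At chr18:72843842-72844434, chr13:110382639-110383328 and chr4:79026294-79026804, all 3 LNCaP libraries given DMSO listed a peak, and 0 of 3 RES-A libraries given DMSO and 0 of 3 given ENZ did. With DHT+ENZ, 1 of 3 RES-A libraries listed one at each of them. With DHT alone all 3 did, at fold enrichments below 5, but only regions with a peak in all 6 of those libraries were tested. At chr17:7806848-7807370 no RES-A library outside DHT alone listed a peak. That RES-A had peaks with DHT alone was fixed by the choice of regions, so the contrast with the other treatments is a description.

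On chromosomes 6 and 8 the shared regions leaned the same way as the regions called in one subline alone. On chromosome 6, 6.51% of the 2535 tested regions were higher in RES-A and 3.43% lower, and on chromosome 8, 3.10% of 2422 were higher and 7.60% lower. The median log2 difference was 0.07 on chromosome 6 and -0.06 on chromosome 8, so the shift of a typical region was small beside the differences in peak share. Chromosome 22 leaned the other way, with more regions called in RES-A alone (6.57% against 4.35% in LNCaP alone) but 2.98% of its shared regions higher and 6.67% lower in RES-A. Chromosomes 2, 5, 9, 10, 12 and 14 likewise had more regions called in RES-A alone and more shared regions lower than higher. So did the genome as a whole, so this pattern is not particular to them. Genome-wide, 7.26% of merged regions were called in RES-A alone and 5.23% in LNCaP alone, and 3.99% of shared regions were higher and 4.28% lower. Fold enrichment is taken over the local background, which over windows rose and fell with the number of peaks.

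The subline differences at shared regions were carried over to libraries that had not been used to find them. Of the 1973 regions higher in RES-A with DHT, 1715 were measured in all 6 libraries given DMSO, and 1669 of those (97.3%) were higher in RES-A there too. Of the 2117 lower in RES-A, 1275 were measured and 1237 (97.0%) were lower. In libraries given ENZ these shares were 96.8% and 95.5%, and in those given DHT+ENZ both were 98.6%. Over all regions measured in both treatments, without regard to the test, 69.1%, 69.6% and 72.8% had the same sign as with DHT. An adjusted p under 0.05 in the same direction was reached by 52.6% of the higher and 53.3% of the lower regions in libraries given DMSO, by 11.5% and 13.8% in those given ENZ, and by 67.0% and 69.5% in those given DHT+ENZ, where 12.8%, 1.36% and 17.1% of all regions passed. The opposite direction was called in 0 of them. The median differences were smaller there, at 0.48 and -0.54 with DMSO against 0.75 and -0.74 with DHT over the same regions. The DHT values chose these regions, which by itself enlarges their median differences with DHT. The contrast is therefore a description and no measure of an effect of DHT.

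Many regions called in one subline alone with DHT also separated the sublines without it. Of the 6447 regions called in RES-A alone, 2563 (39.8%) were also called in 3 of 3 RES-A and 0 of 3 LNCaP libraries given DMSO, 41.7% in those given ENZ and 49.1% in those given DHT+ENZ. Of the 4647 called in LNCaP alone, the shares were 30.8%, 17.6% and 43.6%. By the same rule 6.21% of all merged regions were called in RES-A alone and 5.55% in LNCaP alone with DMSO. The shares were 6.54% against 3.14% in libraries given ENZ and 6.90% against 6.24% in those given DHT+ENZ. A reversal was rare. Of the regions called in RES-A alone, 1, 2 and 3 were called in LNCaP alone with DMSO, ENZ and DHT+ENZ, and of those called in LNCaP alone 0 were called in RES-A alone.

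In 12 of 12 RES-A and 0 of 12 LNCaP libraries were called 1709 regions, 26.5% of those found in RES-A alone with DHT. The LNCaP counterpart, in 12 of 12 LNCaP and 0 of 12 RES-A libraries, numbered 515 (11.1%). At the other end, 388 regions of RES-A (6.02%) and 425 of LNCaP (9.15%) were called in no library given DMSO, ENZ or DHT+ENZ. Some regions lost their call within the same subline. Like shares over all regions called in 3 of 3 libraries of a subline with DHT are not given here. The shares in this paragraph therefore have no background beside them and are not read as particular to the separated regions. With ENZ, 28.1% of the LNCaP regions were called in 0 of 3 LNCaP libraries, against 13.4% of the RES-A regions in 0 of 3 RES-A libraries, with DMSO the shares were 19.4% and 15.3%, and with DHT+ENZ 12.8% and 8.05%. When all deposited peaks were used they were 12.2% and 5.50% for ENZ, 6.59% and 6.52% for DMSO, and 4.48% and 4.81% for DHT+ENZ, where the order was the reverse. The median fold enrichment of the LNCaP regions in LNCaP was lower than that of the RES-A regions in RES-A, as given above, and the difference between these shares was not tested. With all deposited peaks, 4732 regions were called in LNCaP alone. Of these, 2687 had a peak in exactly 2 of 3 LNCaP libraries given ENZ and 738 in all 3, against 1495 and 2300 with DMSO. The part of single libraries in the shares with ENZ was not tested.

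**Figure D5:**
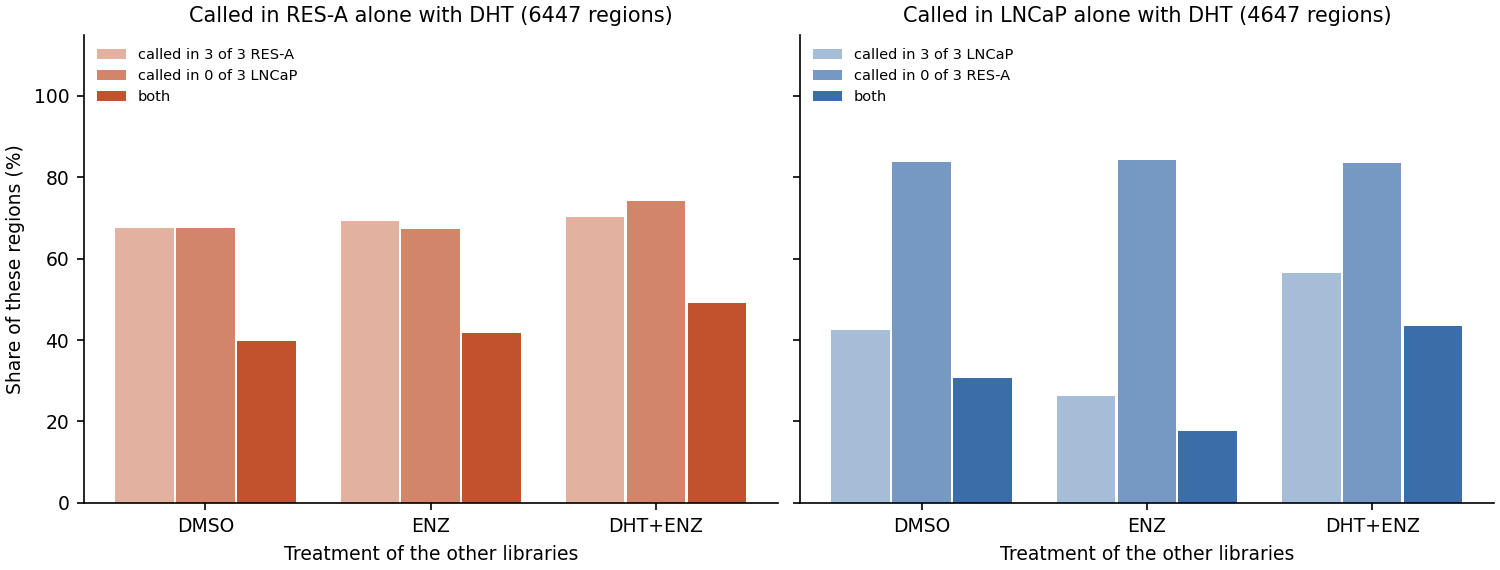
Fate of the regions called in RES-A alone (left, 6447) and in LNCaP alone (right, 4647) with DHT in the libraries given DMSO, ENZ or DHT+ENZ, as the percentage called in 3 of 3 libraries of the same subline, in 0 of 3 of the other, or both. Both conditions held for 39.8% (DMSO) to 49.1% (DHT+ENZ) of the RES-A regions and for 17.6% (ENZ) to 43.6% (DHT+ENZ) of the LNCaP regions.

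Some regions that all 6 libraries called with DHT were called in LNCaP alone without it. Of the 21435 regions called in all 6 libraries given DHT, 16549 (77.2%) were called in all 6 given DMSO. No RES-A library given DMSO called 2056 of them (9.59%), and no LNCaP library given DMSO called 529 (2.47%). Among these, 959 (4.47%) were called in all 3 LNCaP and 0 of 3 RES-A libraries given DMSO, whereas the reverse held for 52 (0.243%). Over all merged regions the shares with DMSO were 5.55% and 6.21%, so the 4.47% lay below that of all regions. That the sublines were alike with DHT is fixed by the choice of the 21435 regions, and that RES-A given DMSO was low is fixed by the choice of the 959, whose values are given as a description. Most of the 959 kept a weaker peak in RES-A given DMSO, where 92.6%, 92.4% and 92.7% of them held one in replicates 1, 2 and 3, at a median fold enrichment of 5.01, 4.89 and 5.53. With DHT the RES-A medians in the same regions were 9.27, 9.11 and 8.75, and LNCaP had 7.98, 8.91 and 6.48 with DMSO and 6.45, 8.36 and 6.62 with DHT. The RES-A libraries given DMSO had 194060, 203508 and 198894 peaks on the chromosomes and a background of 2.73, 3.50 and 3.49 reads per base. Those of LNCaP given DMSO had 193933, 261178 and 128800 peaks and a background of 2.58, 4.84 and 1.95, and the part of depth in these counts was not tested. In the mirror case, the 25176 regions called in all 6 libraries given DMSO, 607 (2.41%) were called in 0 of 3 RES-A libraries given DHT and 807 (3.21%) in 0 of 3 LNCaP libraries given DHT. By the rule that gave the 959, 182 (0.723%) were called in all 3 LNCaP and 0 of 3 RES-A libraries given DHT. The reverse held for 421 (1.67%).

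Whether the subline difference in enrichment depended on DHT was tested as an interaction over the 12 libraries given DHT or DMSO. Of 44931 regions with a peak in all 12, 0 passed an adjusted p of 0.05 in limma (0% called; smallest adjusted p = 0.118), and 3766 had an unadjusted p under 0.05. With median centring in place of quantile normalization 106 passed, 102 of them with a subline difference that was more positive with DHT, and without LNCaP DHT replicate 1, 9 passed, all of them positive. The region with the smallest p, chr9:133404296-133404770, was looked at after its values were known. Its fold enrichment was 5.64, 6.44 and 5.80 in RES-A given DMSO and 15.0, 12.1 and 14.2 in RES-A given DHT. In LNCaP it was 17.0, 16.8 and 11.2 with DMSO and 8.63, 12.6 and 11.2 with DHT. RES-A given DMSO was thus the low group and the other 3 groups overlapped or lay close together (interaction 1.16 on the log2 scale, SE 0.19). The regions chr22:22061828-22062431 and chr15:20637791-20638342 came next, with RES-A at 3.22 to 4.22 and 3.11 to 4.03 when given DMSO and at 12.3 to 13.0 and 9.14 to 11.4 when given DHT.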

How the data were processed

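FAIRE-seq libraries of LNCaP and RES-A were sequenced by the authors as 50-bp reads, aligned with BWA (0.7.8-r455) to hg19, treated with Picard (1.118) and passed to MACS2 (2.1.0), per the submitters' processing notes. Caller options and any control library were not given in the sources used here. Each deposited list gives pileup (a signal in reads), −log10 p-values, −log10 q-values and fold enrichment (a ratio) per peak. Read totals were not used here.

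Peaks on 24 chromosomes were kept, and 0.353% to 0.525% of each list lay elsewhere. Lists were ranked by −log10 p, and the 50000 top peaks per library were merged over 6 libraries at 1 bp. Background was recovered as (pileup + 1) / fold − 1, with 1 as an assumed pseudocount, and its lowest value in a library was taken as the genome-wide level. Where a region held several peaks of a library the strongest was used. Regions and windows were tested with limma (3.58.1, R 4.3.3; trended eBayes, Benjamini-Hochberg threshold 0.05), and library features with exact two-sided permutation tests over every division of the 6 libraries (Python 3.11.15). The limma fits were also run on simulated data with independent noise of equal spread in every library. That setting has no shallow library, and no result here rests on it. Groups and replicate numbers came from sample titles. The members and lists were chosen with earlier results of these data known. Named regions were the 5 per direction with the highest minimum fold enrichment among regions absent from the other subline, and the 5 shared regions and 5 windows per direction with the greatest difference past the threshold. The fits on other treatments, the local background per window and the comparison with regions called in all DMSO libraries were added after seeing the data.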

Additional observations from a re-analysis of the deposited data

How the results depend on the processing

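The counts of regions called in one subline alone followed the number of peaks considered. With 25000 top-ranked peaks per library they were 5692, with 3335 in RES-A and 2357 in LNCaP. With all deposited peaks they were 21623 in total and 16891 in RES-A, and with a q threshold of 0.01 they were 21061 and 16547, while the LNCaP counts under those 2 settings, the autosomes alone and 500-bp tiles stayed within 1.5 times. With all deposited peaks the shares of RES-A and LNCaP regions that also separated the sublines were 43.0% and 34.0% in libraries given DMSO, 47.3% and 9.15% in those given ENZ, and 46.2% and 52.0% in those given DHT+ENZ. At shared regions, median centring called 7853 (3346 higher, 4507 lower), the use of regions with peaks in at least 3 of 6 libraries and absent values at the floor called 20788 (10208 and 10580), and the rank percentile called 0 (0 and 0). Windows of 5 Mb gave 370 calls of 572 (172 higher, 198 lower). The interaction test called 106 with median centring (102 and 4). The cause of these changes was not tested. Named shared regions kept their direction in the 109 alternatives that gave a value and their call in 99. All 10 lost calls were under the rank percentile, and chr15:75100435-75100934 had no value under the q threshold of 0.01.

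Leaving out 1 library at a time gave 13002 to 15610 separating regions (7485 to 8021 in RES-A, 5225 to 7908 in LNCaP), 503 to 16761 shared regions called (221 to 8709 higher, 281 to 8052 lower), 178 to 202 windows and 0 to 9 interaction calls (0 to 9 positive). The highest totals of separating and shared regions came without LNCaP replicate 1. The difference in number of peaks ranged from -64360 to 31996 and that in covered genome from -15.0 to 12.9 Mb, turning sign.

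The replicate numbers did not pair the libraries. Deviations from the group means correlated at 0.02, -0.02 and 0.04 between same-numbered libraries over regions. With the replicate number as a block, 3986 shared regions (1997 higher, 1989 lower), 206 windows and 0 interaction regions were called, and exact sign-flip tests of the library features could not fall below p = 0.25.

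Precision is limited by 3 libraries per group, by the depth of LNCaP replicate 1, by peak lists in which regions under the caller's threshold have no value, and by fold enrichment being relative to a local background that differed between the sublines.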
